A study of Mus musculus with 12 samples.

Results

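The circadian clock genes Arntl, Npas2, Per1, Per2, Per3, Nr1d1, Nr1d2, Dbp and Tef and the gene of nocturnin, Ccrn4l, were described in whole liver and in liver sinusoidal endothelial cells (LSEC) of C57BL/6 mice. These 10 genes were taken by symbol from the 17210 genes held in the 2 deposited RNA-seq tables, and all 10 were present in both. They were chosen with the NASH against chow values of these tables in view, since Ccrn4l differed in opposite directions in liver and in LSEC. Their own differences between diets are therefore given as a description and without a test.

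There were 4 groups of 3 libraries each: whole liver of mice labelled NASH, whole liver labelled chow, LSEC labelled NASH and LSEC labelled chow. NASH is nonalcoholic steatohepatitis, a fatty liver disease with inflammation, and the labels name the diet D09100301 from Research Diets, fed for 36 weeks. That feeding entry is attached to every sample, those labelled chow included. LSEC, the cells that line the small vessels of the liver, were obtained per the labels from non-parenchymal cells by removing CD11b-positive cells and then collecting CD146-positive cells on magnetic beads. The labels state neither age, sex, time of day nor feeding state at tissue collection, nor whether the libraries of a group came from separate mice. Library depth was 47000197 to 57397720 reads in liver and 18527017 to 19402863 in LSEC. Chow LSEC library 1 stood apart from the other chow LSEC libraries for several clock genes, and values that rest on it are also given without it. It was picked out by those same values, so a wider separation of the diets without it is no support.

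The clock is a transcriptional loop that runs in most cells, and the level of its transcripts depends on the time of day. ARNTL (also called BMAL1) pairs with CLOCK or its relative NPAS2 and activates genes through E-boxes, among them the Per, Cry, Nr1d1, Nr1d2, Dbp and Tef genes. PER and CRY proteins then restrain the ARNTL complex, and the nuclear receptors NR1D1 and NR1D2 (REV-ERB alpha and beta) repress Arntl and Npas2. DBP, TEF and their relative HLF activate target genes through D-boxes. Nocturnin is a rhythmic protein related to the CCR4 deadenylases, and it removes a phosphate from NADPH and NADP+.

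Promoter sequences are shown for members whose window held 1 of the motifs of this loop, and for Ccrn4l, on which the results turn. RefSeq sequences on GRCm38.p6 covering 250 bases before to 50 after a start site were found for 9 of the 10 genes (12 windows), Ccrn4l under its current symbol Noct, with Per2 named only. They were searched on both strands for CACGTG (E-box), TTANGTAA (D-box) and TAGGTCA (the core of the element bound by REV-ERB and ROR receptors). The stretches below run 5′ to 3′ along the gene's strand, with the motif in capitals: Per1 at chr11:69098699-69098948 on the plus strand, the upstream Tef window at chr15:81802423-81802672 on the plus strand, Per3 at chr4:151044666-151044915 on the minus strand, Noct at chr3:51224197-51224446 on the plus strand, and 27 bases of Arntl at chr7:113207531-113207557 on the plus strand.
Per1: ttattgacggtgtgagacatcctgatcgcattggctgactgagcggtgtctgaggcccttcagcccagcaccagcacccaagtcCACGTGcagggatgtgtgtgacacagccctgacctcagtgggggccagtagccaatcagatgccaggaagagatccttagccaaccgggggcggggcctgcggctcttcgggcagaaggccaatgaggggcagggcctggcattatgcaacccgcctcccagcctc
Tef: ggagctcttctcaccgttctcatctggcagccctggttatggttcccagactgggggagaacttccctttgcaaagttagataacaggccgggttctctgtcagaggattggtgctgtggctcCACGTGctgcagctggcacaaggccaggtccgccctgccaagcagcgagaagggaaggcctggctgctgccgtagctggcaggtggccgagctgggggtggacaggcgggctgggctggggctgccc
Per3: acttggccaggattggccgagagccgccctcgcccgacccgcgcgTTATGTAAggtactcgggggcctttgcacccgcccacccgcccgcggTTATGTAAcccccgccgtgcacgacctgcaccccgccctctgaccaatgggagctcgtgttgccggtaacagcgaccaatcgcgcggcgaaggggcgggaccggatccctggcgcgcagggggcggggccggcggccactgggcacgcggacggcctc
Noct: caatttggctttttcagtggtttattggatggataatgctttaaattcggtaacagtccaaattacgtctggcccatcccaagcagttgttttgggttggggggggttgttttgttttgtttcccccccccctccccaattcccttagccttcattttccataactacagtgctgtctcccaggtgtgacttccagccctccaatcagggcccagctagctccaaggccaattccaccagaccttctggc
Arntl: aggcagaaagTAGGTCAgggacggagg

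An E-box stood in the windows of Per1 and Tef, a pair of D-boxes in that of Per3 and the receptor core in that of Arntl, so 4 of the 9 genes had a match. The E-box began 166 bases before the Per1 start site, and 127 and 138 bases before the start sites of the 2 Tef windows that held it. The D-boxes of Per3 began 205 and 158 bases before its start site, and the Arntl core began 30 bases after. None of the 3 motifs occurred in the 300-base Noct window. Over all 32851 RefSeq mouse windows, 7.15% held the E-box, 2.32% the D-box and 2.61% the receptor core. The E-box reads the same on both strands and was counted once. These matches describe letters only.

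Ccrn4l, on mouse chromosome 3 (51224447 to 51251644, plus strand, mm10), was the member with the greatest difference between diets in both tissues, with opposite signs. Values are normalized reads, which are read counts divided by 1 factor per library. In liver, Ccrn4l had 1146, 1037 and 1015 normalized reads in NASH libraries, against 6505, 5362 and 5138 in chow libraries. The groups stood far apart, with every NASH library below every chow library. Its mean was 1066 ± 69.7 in NASH liver and 5668 ± 733 in chow liver (SD, n = 3 each), 5.32-fold lower in NASH, and its log2 fold change was -2.40 ± 0.11 (SE).

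In LSEC, Ccrn4l had 809.7, 562 and 482 normalized reads in NASH libraries, against 120.1, 219.8 and 125 in chow libraries. Here every NASH library lay above every chow library. The means were 618 ± 171 in NASH LSEC and 155 ± 56.2 in chow LSEC (SD, n = 3 each), 3.99-fold higher in NASH, with a log2 fold change of 2.01 ± 0.30 (SE). The liver effect minus the LSEC effect was -4.41 ± 0.32 on the log2 scale. In CPM, reads scaled to the total of each library, which sets levels across the separately normalized tables, Ccrn4l averaged 23.5 CPM in NASH liver and 34.3 CPM in NASH LSEC, against 93.4 CPM in chow liver and 7.79 CPM in chow LSEC. On this scale its level was lower in liver than in LSEC in NASH and higher in liver than in LSEC on chow.

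**Figure D1:**
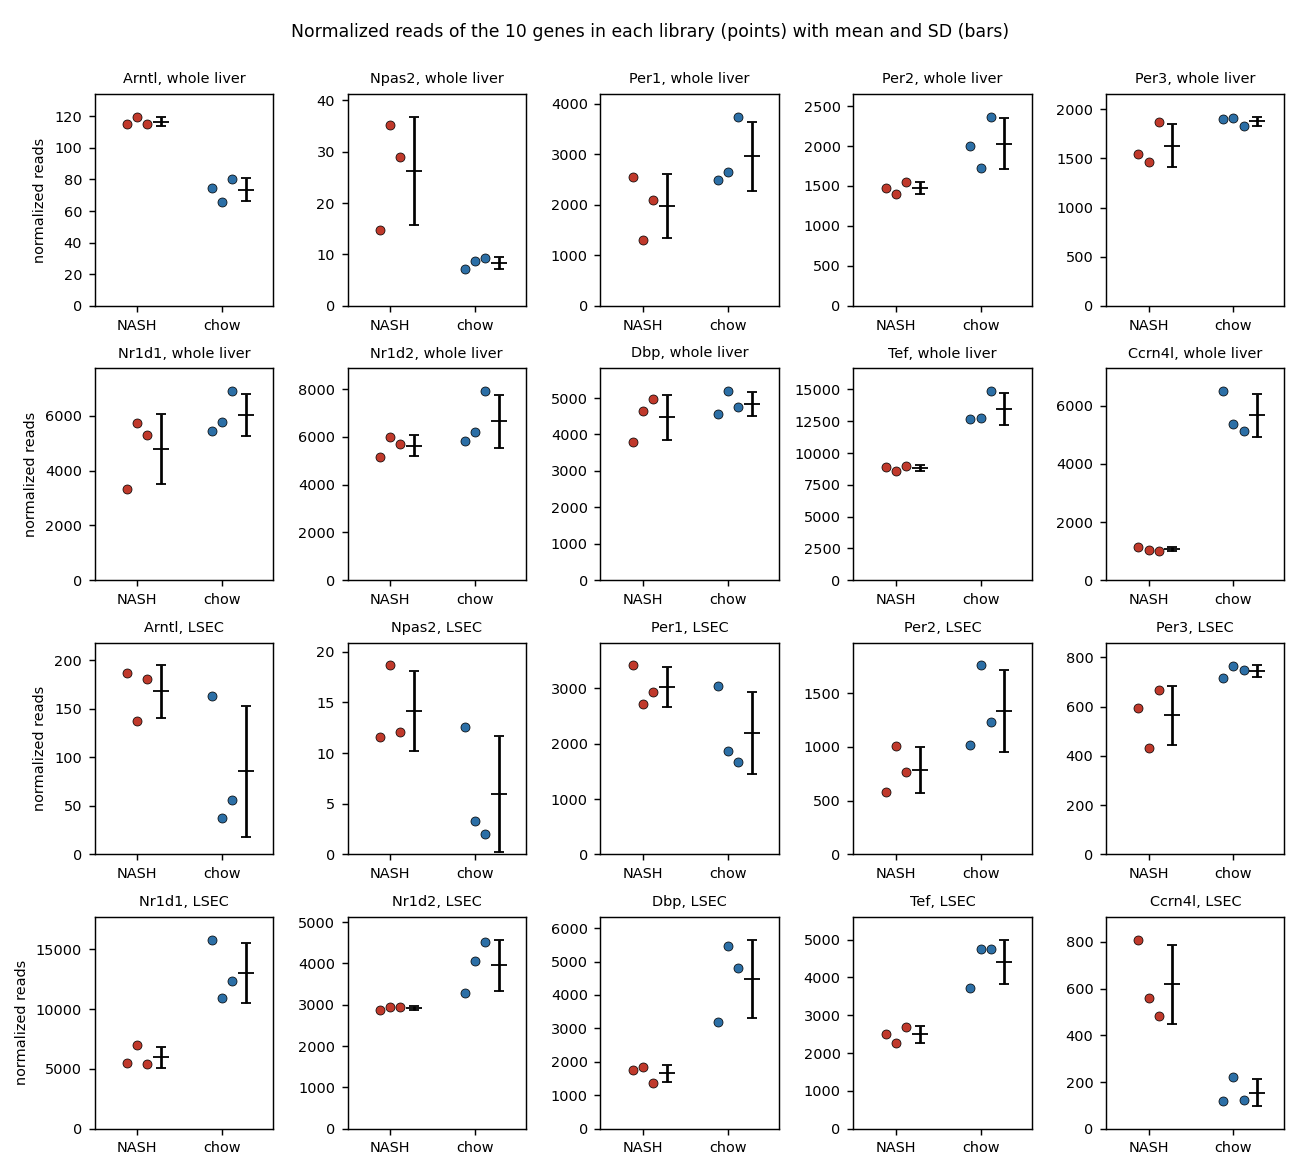
Normalized reads (linear axes from 0) of the 10 genes in each whole liver and LSEC library, NASH left and chow right; points are libraries and bars are the mean and SD of 3. Ccrn4l lies between 1015 and 1146 in NASH liver and between 5138 and 6505 in chow liver, while in LSEC its NASH libraries lie above its chow libraries.

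Hepatocyte RNA differed between the libraries as well. The 10 hepatocyte markers took 7.36 to 7.93% of reads in NASH liver and 11.0 to 11.7% in chow liver, and 0.216 to 0.464% in NASH LSEC and 0.035 to 0.423% in chow LSEC, and none of the 10 was at 0 in all libraries of a tissue. In bulk samples, fewer cells of a type and less RNA per cell cannot be told apart. Set against albumin (Alb), the major hepatocyte transcript, liver Ccrn4l had 0.545, 0.515 and 0.517 reads per 1000 Alb reads in NASH libraries, against 1.69, 1.23 and 1.23 in chow libraries, so the groups stood apart on this scale too.

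In LSEC, Alb had 28761, 37338 and 58359 reads in NASH libraries, against 10533, 56592 and 5666 in chow libraries. Had LSEC Ccrn4l reads stood in the same ratio to Alb as in whole liver of the same diet, they would have made up 1.80, 3.26 and 5.92% of those measured in the NASH libraries, against 12.7, 38.7 and 6.42% in the chow libraries. The chow LSEC library with the most Ccrn4l was thus also the chow library with the most Alb. The estimate takes all Alb reads in LSEC to come with RNA of whole-liver make-up. The part of hepatocyte RNA in the LSEC values of Ccrn4l was not tested. Of the 15766 genes in both tables, 139 (0.882%) had a log2 fold change under -1 in liver and over 1 in LSEC by limma. This set depends on the estimate used. Within it, the authors' deposited LSEC log2 ratio was under 1 for Alb (0.577), Apoa1 (0.774), Cps1 (0.903), Serpina1c (0.285) and Tat (-0.0214). It was over 1 for Ccrn4l, Cyp7a1, Errfi1 and Gys2, and the deposited ratios of the other genes of the set are not given here. For 81 of these 139 the same Alb-scaled estimate averaged over 50% of the measured NASH LSEC reads, and for 32 it averaged under 10%, Ccrn4l among the 32. The 139 were picked by the same NASH values that enter this estimate, so nothing is read from the place of Ccrn4l. A total of 397 of the 15766 genes (2.52%) had all NASH libraries below chow in liver and above chow in LSEC.

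**Figure D2:**
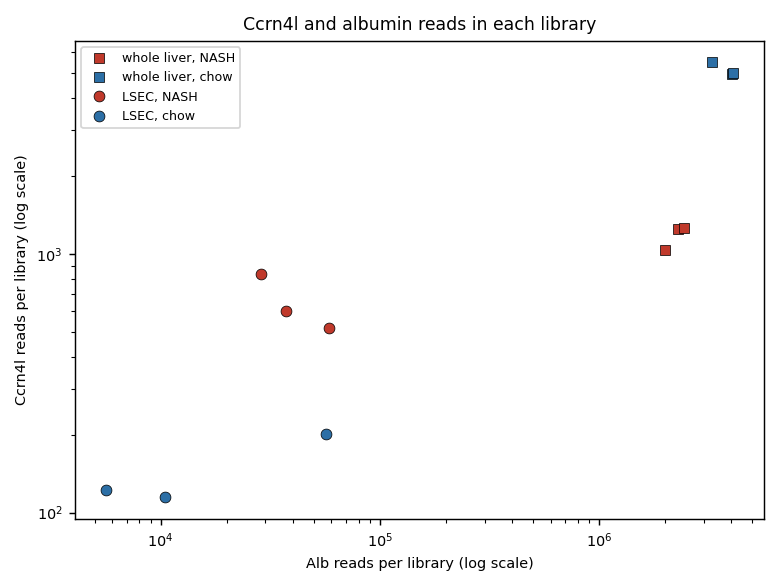
Ccrn4l reads against Alb reads in each of the 12 libraries, both on log scales; squares are whole liver and circles LSEC, red NASH and blue chow. At 28761 to 58359 Alb reads the NASH LSEC libraries had 518 to 838 Ccrn4l reads, while the chow LSEC library with 56592 Alb reads had 202.

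LSEC libraries also differed in other cell markers. Sinusoidal endothelial markers (11 genes, among them Stab2 and Lyve1) took 2.04 to 2.22% of reads in NASH LSEC and 2.87 to 3.07% in chow LSEC, against 0.0589 to 0.0634% in NASH liver and 0.0539 to 0.0660% in chow liver. In LSEC 1 of these 11 rose (limma, adjusted p under 0.05), Lyve1 at a log2 fold change of 1.40, and 3 fell. Over all LSEC genes 5.24% rose and 2.86% fell. Macrophage markers (12 genes) took 0.352 to 0.450% in NASH LSEC and 0.068 to 0.192% in chow LSEC, and 8 of the 12 rose (limma, adjusted p under 0.05), where 5.24% of all LSEC genes did. Stellate cell and myofibroblast markers (8 genes) took 0.227 to 0.427% in NASH LSEC and 0.072 to 0.171% in chow LSEC, and 3 of the 8 rose by the same test. No gene of these lists was at 0 in all libraries of a tissue, and the part of these cells in the LSEC values of the clock genes was not tested.

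Of the activators, Arntl and Npas2 had higher means in NASH in both tissues, with overlap in LSEC. Arntl (chromosome 7, 113207465 to 113314126, plus strand) encodes the partner of CLOCK. In liver it had 115, 119.6 and 115 normalized reads in NASH libraries, against 74.7, 65.8 and 80.0 in chow libraries, with no overlap and a log2 fold change of 0.66 ± 0.19 (SE). In LSEC it had 186, 137 and 180.3 in NASH libraries, against 163, 38.1 and 56.3 in chow libraries, a log2 fold change of 1.23 ± 0.51. Chow LSEC library 1 lay within the NASH range and far above the other two chow libraries.

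Npas2 (chromosome 1, 39193731 to 39363236, plus strand) encodes an alternative to CLOCK and had few reads. Its liver values were 14.7, 35.2 and 29.0 in NASH libraries, against 7.12, 8.63 and 9.23 in chow libraries, without overlap, with a log2 fold change of 1.47 ± 0.40 (SE). Its LSEC values were 11.6, 18.7 and 12.1 in NASH libraries, against 12.5, 3.26 and 2.05 in chow libraries, a log2 fold change of 1.40 ± 0.62, and chow library 1 again lay among the NASH libraries. Without chow library 1 the LSEC log2 fold changes were 1.82 for Arntl and 2.04 for Npas2, and all NASH libraries then lay above the remaining chow libraries for both. Since chow library 1 was left out for these values, that separation follows from the choice. In that library the immediate early gene Fos also stood apart, as given with its group.

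The Per genes, whose proteins form the inhibitory arm, did not share a direction across the tissues. Per1 (chromosome 11, 69095217 to 69109960, plus strand) had 2542, 1299.9 and 2096 normalized reads in NASH liver, against 2484, 2644 and 3741 in chow liver, a log2 fold change of -0.61 ± 0.23 (SE). In LSEC Per1 had 3415, 2725 and 2926 in NASH libraries, against 3034, 1876 and 1674 in chow libraries, a log2 fold change of 0.51 ± 0.23. The diets overlapped in both tissues. In liver only NASH library 1 lay above a chow library, chow library 1, and in LSEC chow library 1 lay within the NASH range.

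Per2 (chromosome 1, 91415982 to 91459324, minus strand) was below chow in every NASH library of both tissues. It had 1478, 1399 and 1554 normalized reads in NASH liver, against 2006, 1722 and 2367 in chow liver, a log2 fold change of -0.45 ± 0.12 (SE). In LSEC it had 583, 1006 and 766 in NASH libraries, against 1022, 1758 and 1227 in chow libraries, a log2 fold change of -0.76 ± 0.26, and the highest NASH and lowest chow library nearly met. Per3 (chromosome 4, 151003652 to 151044665, minus strand) had 1547, 1459.7 and 1873 in NASH liver, against 1896, 1911 and 1826 in chow liver, with overlap and a log2 fold change of -0.22 ± 0.11. Its LSEC values were 593, 434 and 667 in NASH libraries, against 717, 765 and 749 in chow libraries, without overlap, a log2 fold change of -0.42 ± 0.18.

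The REV-ERB genes were lower in NASH LSEC, Nr1d1 more so than Nr1d2. Nr1d1 (chromosome 11, 98767932 to 98775333, minus strand) had 5475, 6967 and 5449.9 normalized reads in NASH LSEC, against 15806, 10918 and 12345 in chow LSEC, 2.18-fold lower by the means, with a log2 fold change of -1.12 ± 0.18 (SE) and no overlap. In liver it had 3333, 5730.3 and 5312 in NASH libraries, against 5443, 5773 and 6904 in chow libraries, a log2 fold change of -0.37 ± 0.19, with overlap and NASH library 1 lowest. Nr1d2 (chromosome 14, 18204054 to 18239127, minus strand) had 2865, 2936 and 2949 in NASH LSEC, against 3283, 4068 and 4509 in chow LSEC, a log2 fold change of -0.43 ± 0.14. Its liver values overlapped, with 5172, 6016 and 5719 in NASH libraries, against 5820.3, 6226 and 7926 in chow libraries, and a log2 fold change of -0.23 ± 0.12.

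The D-box activators were also lower in NASH LSEC. Dbp (chromosome 7, 45705088 to 45710203, plus strand) had 1762, 1839 and 1364 normalized reads in NASH LSEC, against 3183, 5454 and 4815 in chow LSEC, 2.71-fold lower by the means, with a log2 fold change of -1.41 ± 0.22 (SE) and no overlap. In liver Dbp had 3785, 4646 and 4971 in NASH libraries, against 4552, 5192 and 4747 in chow libraries, interleaved, with a log2 fold change of -0.12 ± 0.11. Tef (chromosome 15, 81802421 to 81826863, plus strand) was below chow in every NASH library of both tissues. Its liver values were 8865, 8554 and 8988 in NASH libraries, against 12688, 12719.9 and 14879 in chow libraries, a log2 fold change of -0.61 ± 0.09. Its LSEC values were 2512, 2264 and 2702 in NASH libraries, against 3729, 4744 and 4755 in chow libraries, a log2 fold change of -0.82 ± 0.14.

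**Figure D3:**
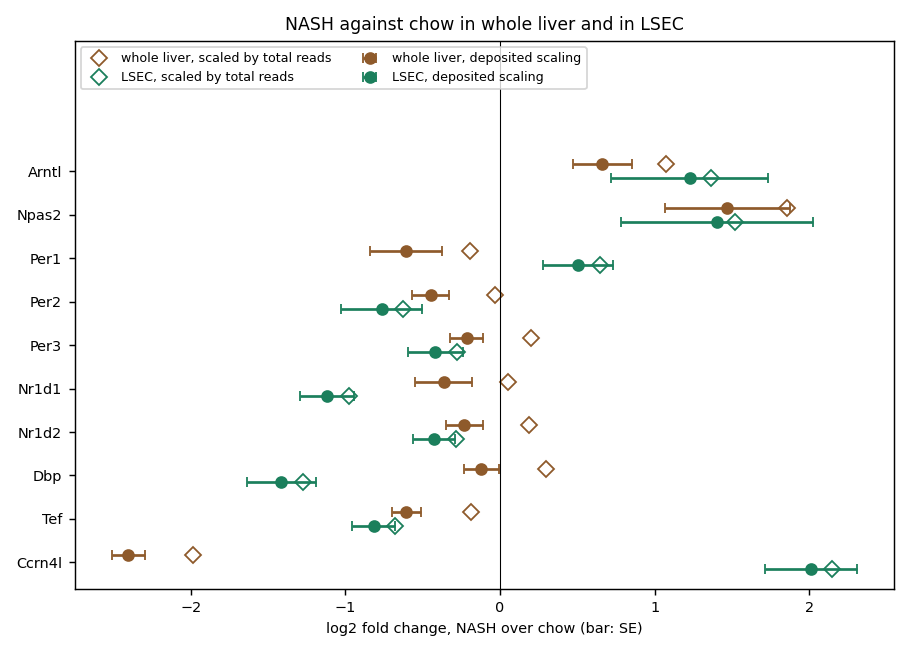
Log2 fold change of NASH over chow for the 10 genes (bars, SE; 3 against 3 libraries) in whole liver (brown) and LSEC (green), as deposited (filled) and scaled by total reads (open). Ccrn4l stands at -2.40 in liver and 2.01 in LSEC, and Dbp at -0.12 in liver and -1.41 in LSEC.

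Scaling by total reads instead of the authors' factors moved the median log2 fold change of all genes by 0.40 in liver and by 0.14 in LSEC, and with it the liver log2 fold changes of Per3, Nr1d1, Nr1d2 and Dbp turned positive (0.20, 0.05, 0.19 and 0.30) that of Per2 came to -0.03, and those of Per1 and Tef both came to -0.19. Under that scaling liver Ccrn4l stood at -1.99 and LSEC Ccrn4l at 2.15, and no LSEC member changed sign. Relative to the median gene, liver Dbp stood at -0.14 under the deposited factors and at -0.13 under total reads.

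By limma on log2(normalized reads + 1), 2 members were called higher (Arntl and Npas2) and 3 lower (Per2, Tef and Ccrn4l) in liver, where 46.0% of all 16703 genes were called at an adjusted p under 0.05, 25.0% higher and 21.0% lower. In LSEC 1 member was called higher (Ccrn4l) and 3 lower (Nr1d1, Dbp and Tef), where 8.11% of all 16273 genes were called, 5.24% higher and 2.86% lower. All NASH libraries lay above chow for 2 members and below for 3 in liver, where 57.1% of all genes did not overlap, 29.8% above and 27.3% below. In LSEC they lay above for 1 and below for 6, where 31.9% of all genes did not overlap, 16.5% above and 15.4% below. Since the members were chosen on these contrasts, nothing is read from these counts. Without chow LSEC library 1, left out for its values of such genes, the count was 4 above and 6 below. Over all genes 22.9% then lay above and 23.5% below. The LSEC log2 fold changes were then 0.76 for Per1, -0.97 for Nr1d1, -1.64 for Dbp and 1.86 for Ccrn4l.

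Besides Ccrn4l, the members whose liver and LSEC effects lay furthest apart were Dbp, Per1 and Nr1d1. The liver effect minus the LSEC effect was 1.29 ± 0.25 (SE) for Dbp, -1.11 ± 0.33 for Per1 and 0.75 ± 0.26 for Nr1d1, on the log2 scale. For the remaining 6 members it ran from -0.56 ± 0.54 for Arntl to 0.32 ± 0.29 for Per2. Without chow LSEC library 1 it was 1.52 for Dbp, -1.37 for Per1, -1.16 for Arntl and 0.61 for Nr1d1, so that Arntl then came before Nr1d1, and without chow LSEC library 2 it was -0.13 for Arntl.

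The log2 ratio of Dbp to Arntl, an E-box target to its activator, was 5.03, 5.27 and 5.42 in NASH liver, against 5.91, 6.28 and 5.87 in chow liver. In LSEC it was 3.23, 3.74 and 2.91 in NASH libraries, against 4.28, 7.13 and 6.39 in chow libraries. Every NASH library lay below every chow library in both tissues, and the scaling enters such a ratio only through the 1 read added before the log. For Nr1d1 to Arntl, chow LSEC library 1 stood at 6.59, nearer to the NASH libraries (4.87, 5.66 and 4.91) than the other chow libraries did (8.13 and 7.75). Nr1d1 itself was highest in that library, at 15806 normalized reads, so its lower ratio came with its Arntl value of 163.

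**Figure D4:**
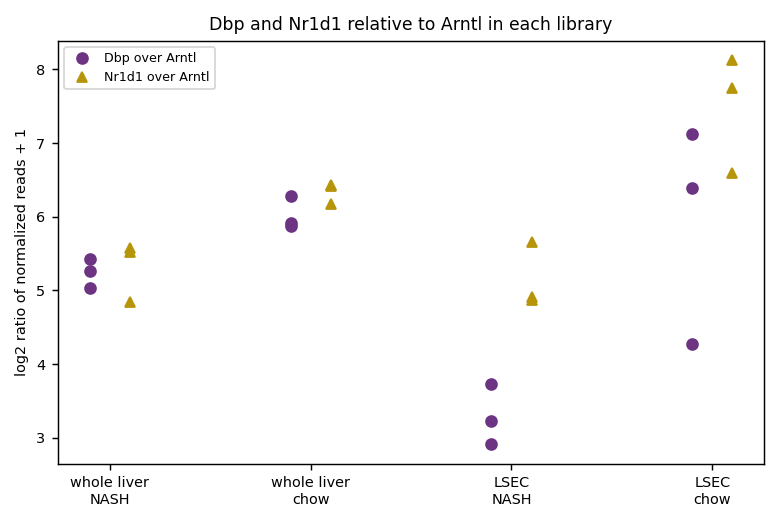
Log2 ratio of Dbp to Arntl (circles) and of Nr1d1 to Arntl (triangles) in each library, on a scale of normalized reads + 1. In LSEC the Dbp to Arntl ratio lies between 2.91 and 3.74 in NASH libraries and between 4.28 and 7.13 in chow libraries, the lowest chow value being library 1.

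Libraries of the same group also varied. The range over the 3 chow LSEC libraries was 2.07 log2 units for Arntl and 2.15 for Npas2, against 0.44 and 0.64 in NASH LSEC. The smallest range was that of Nr1d2 in NASH LSEC, at 0.04 log2 units. Ccrn4l had a range of 0.87 in chow LSEC and 0.75 in NASH LSEC. Within liver, the widest ranges were those of Npas2 (1.21) and Per1 (0.97) in NASH, and those of Per1 (0.59) and Per2 (0.46) in chow.

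Per kilobase of exon, the order of the members was led by Nr1d1 in all 4 groups and closed by Arntl and Npas2. Nr1d1 had 1938 normalized reads per kb in NASH LSEC and 4232 in chow LSEC, above 97.8% and 99.1% of genes with a length in those groups. Ccrn4l stood at place 8 of the 10 members in NASH liver (100.02 per kb, above 48.5% of genes) and at place 5 in chow liver (532 per kb, above 79.4%). In LSEC it stood at place 8 in both diets, with 57.9 per kb in NASH, above 46.5% of genes, and 14.5 per kb in chow, above 29.7%. Some neighbours in this order lay close together: Ccrn4l and Per1 had 532 and 525 per kb in chow liver, and Per3 and Ccrn4l had 58.8 and 57.9 per kb in NASH LSEC.

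Exons of some members overlap those of a gene on the other strand, and the liver kit does not mark strand, so reads there cannot be told apart. Dbp shares 539 exon bases with Sphk2, a sphingosine kinase gene, and Nr1d1 shares 263 with the thyroid hormone receptor gene Thra. Tef and Arntl share 193 and 33 exon bases with Gm17597 and Gm45355, for which no values are given here. In liver Sphk2 fell by 0.41 ± 0.11 (SE, limma adjusted p = 0.0102). In LSEC Sphk2 had 809.7, 929 and 941 normalized reads in NASH libraries, against 879, 558 and 618 in chow libraries, and Thra had 1194, 762 and 1352 in NASH libraries, against 1869.9, 814 and 1019.5 in chow libraries. Neither passed the test in LSEC (adjusted p = 0.226 for Sphk2 and 0.868 for Thra, limma).

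The rest of the clock was followed in the 18 of 19 listed genes that stood in both tables. In liver 3 rose and 5 fell (limma, adjusted p under 0.05), beside 46.0% of all genes called, 25.0% higher and 21.0% lower, so the share called was near that of all genes. The median log2 fold change was -0.14, against 0.02 over all genes. In LSEC 1 rose and 2 fell, beside 8.11% of all genes called, with a median of 0.03, against 6.8e-05 over all genes; scaling by total reads gave 2 higher and 2 lower there. Without chow LSEC library 1, 1 rose and 4 fell in LSEC, the added calls being Cry1 (adjusted p = 0.0197) and Ciart (0.0442). The liver effect differed from the LSEC effect for 5 of the 18, higher in liver for 3 and lower for 2, where 11.5% of all 15766 genes were higher and 7.99% lower, 19.5% in all; scaling by total reads gave 5 higher and 1 lower. The liver count turned to 7 higher and none lower under scaling by total reads, so the liver falls are relative to the authors' factors.

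Of the activators, Clock, the partner of ARNTL, fell in liver to 1129.9, 1479.8 and 1154 normalized reads in NASH libraries, against 1901, 1796 and 1883 in chow libraries (log2 fold change -0.58 ± 0.11, adjusted p = 0.00268, limma). In LSEC it stood at 1933 ± 385 in NASH and 1931 ± 549.8 in chow (SD, n = 3 each; log2 fold change 0.02 ± 0.23 SE, limma adjusted p = 0.974). Arntl2, a relative of Arntl, rose in LSEC from few reads, with 14.5, 28.9 and 37.2 normalized reads in NASH libraries, against 6.27, 3.26 and 1.02 in chow libraries (limma adjusted p = 0.0399). That call was lost when any library other than chow library 1 was left out, with adjusted p of 0.0644 to 0.150.

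Among the repressors, Cry2, a partner of the PER proteins, fell in liver by 0.38 ± 0.09 on the log2 scale (limma adjusted p = 0.00519). In LSEC Cry2 had 238, 299 and 263 normalized reads in NASH libraries, against 389.7, 407 and 491 in chow libraries, without overlap, at a limma adjusted p of 0.0518. The authors' deposited adjusted p (DESeq2) for Cry2 in LSEC was 0.00590. Ciart, an E-box-driven repressor of the ARNTL complex, had 905, 469 and 539 in NASH liver, against 1017, 1268 and 1375 in chow liver, and fell by 0.98 ± 0.22 (limma adjusted p = 0.00546). In LSEC Ciart stood at 141, 96.1 and 46.5 in NASH libraries, against 197, 445 and 369.5 in chow libraries, at a limma adjusted p of 0.0523; its adjusted p in the authors' deposited table was 0.000959. Under scaling by total reads the liver value of Cry2 was 0.03 and that of Ciart -0.57, and neither passed the test.

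Bhlhe40 and Bhlhe41 encode the E-box repressors DEC1 and DEC2. Bhlhe40 rose in liver, with 6454, 6402 and 7370.2 normalized reads in NASH libraries, against 3199.6, 4098 and 6091 in chow libraries (log2 fold change 0.64 ± 0.19, limma adjusted p = 0.0213), a call lost when NASH library 1 or 3 or chow library 1 or 2 was left out (adjusted p of 0.0645 to 0.0873). Bhlhe41 fell in LSEC to 39.6, 75.6 and 67.9 in NASH libraries, against 365, 460.2 and 520.0 in chow libraries, a log2 fold change of -2.89 ± 0.29 (limma adjusted p = 0.00493). Its liver libraries overlapped, with 232, 385 and 359 in NASH and 391.5, 410.0 and 323 in chow. The liver minus LSEC difference for Bhlhe41 was 2.66 ± 0.35 (adjusted p = 0.000265 from both limma fits).

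Hlf, the D-box activator related to Dbp and Tef, fell in both tissues and further in LSEC. It had 344, 516 and 496 normalized reads in NASH LSEC, against 1441, 2399 and 2076 in chow LSEC, a log2 fold change of -2.11 ± 0.24 (limma adjusted p = 0.00704). In liver it had 3611, 3604 and 3532 in NASH libraries, against 4216, 4779 and 5319 in chow libraries, a fall of 0.41 ± 0.10 (limma adjusted p = 0.00689), and under scaling by total reads its log2 fold change turned to slightly above 0, at 0.0091. The liver minus LSEC difference was 1.71 ± 0.26 (adjusted p = 0.00185 from both limma fits).

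Nfil3, which opposes the D-box activators, had 154, 80.2 and 83.7 normalized reads in NASH LSEC, against 10.4, 38.1 and 3.07 in chow LSEC, without overlap (log2 fold change 3.06 ± 0.78, limma adjusted p = 0.0580). The authors' deposited adjusted p (DESeq2) for Nfil3 in LSEC was 0.00469. In liver Nfil3 had 952, 582 and 434 in NASH libraries, against 379.6, 604 and 629.6 in chow libraries. Its liver minus LSEC difference passed at -2.82 ± 0.83 (adjusted p = 0.0427 from both limma fits), and was lost without any of 8 of the 12 libraries. Rora, an activator that competes with REV-ERB at its element, fell in liver by 0.46 ± 0.12 (limma adjusted p = 0.0116) and had 877, 833 and 979.7 in NASH LSEC, against 744, 510.3 and 691 in chow LSEC. The difference between its tissue effects was -0.94 ± 0.21 (adjusted p = 0.00724 from both limma fits), while its liver fall came to -0.04 under scaling by total reads.

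Of the genes that modify clock proteins, 2 rose in liver. Csnk1e, a casein kinase gene whose product phosphorylates PER proteins, rose in liver by 0.62 ± 0.15 on the log2 scale (limma adjusted p = 0.00897) and stood at 2067 ± 198 normalized reads in NASH LSEC and 2063 ± 181 in chow LSEC (SD, n = 3 each). Fbxl21, an F-box gene whose product acts on CRY proteins, rose in liver by 0.65 ± 0.16 (limma adjusted p = 0.00799) and had under 9 normalized reads in each LSEC library. Csnk1d, Btrc, Cipc, Timeless and Cry1 passed the test in neither tissue. Cry1 had 278, 352 and 334 normalized reads in NASH LSEC, against 283 in chow LSEC library 1 and 738 and 648 in the other two chow libraries.

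**Figure D5:**
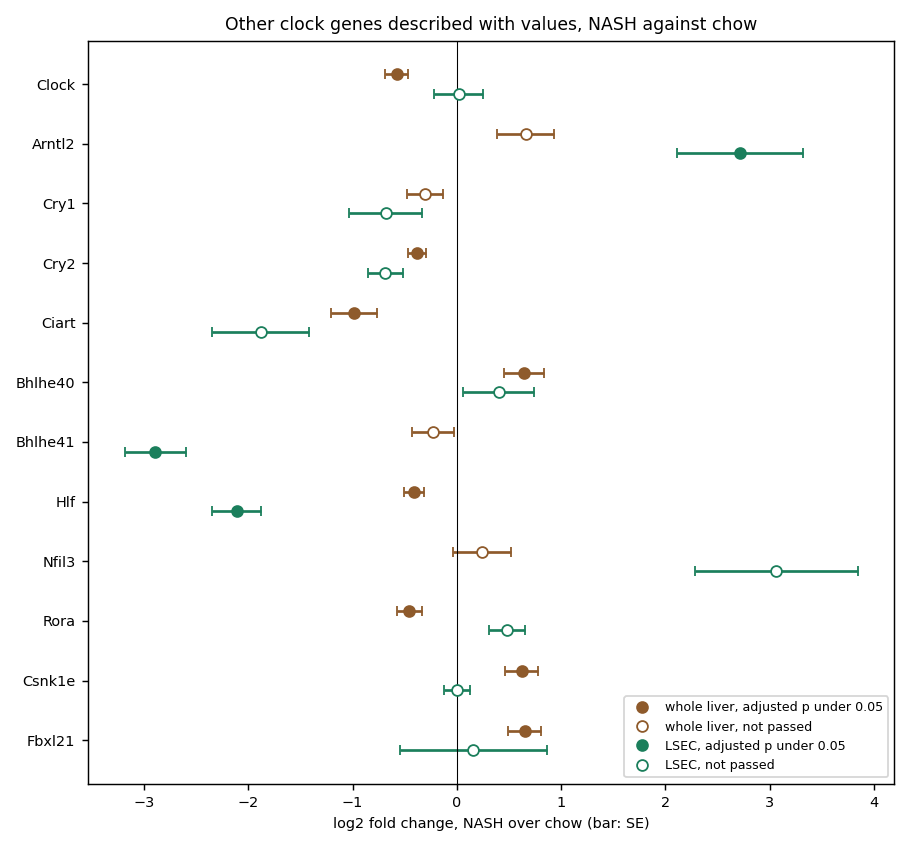
Log2 fold change of NASH over chow (bars, SE; 3 against 3 libraries) of the 12 other clock genes described with values, in whole liver (brown) and LSEC (green); filled points have an adjusted p under 0.05 in limma. Bhlhe41 and Hlf stand lowest in LSEC, at -2.89 and -2.11.

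Known clock-driven output genes of liver, 14 listed, gave 1 higher and 9 lower in liver (limma), where 46.0% of all genes were called, with a median log2 fold change of -0.86, against 0.02 over all genes. Scaling by total reads gave 3 higher and 6 lower, at a median of -0.45. The hepatocyte markers moved with them, 0 higher and 6 lower of 10 at a median of -1.06 in liver, and their part in the values of this list was not tested. Nr1i3, the gene of the nuclear receptor CAR, fell by 1.18 ± 0.11 (SE, limma adjusted p = 3.61e-05). Elovl3, a fatty acid elongase gene, fell to 1331, 1978 and 1003 normalized reads in NASH libraries, against 6238, 5533 and 5989.7 in chow libraries (limma adjusted p = 4.78e-05). Gys2, the liver glycogen synthase gene, fell by 1.75 ± 0.17 (limma adjusted p = 5.70e-05). In LSEC, where the median was 0.66, Cyp2a4 alone of the 14 passed the limma test, a rise to 21.3, 16.8 and 43.7 normalized reads in NASH libraries, against 0, 1.09 and 0 in chow libraries (limma adjusted p = 0.0102). The log2 fold change of Cyp2a4 was 4.33 in liver and 4.35 in LSEC. The part of hepatocyte RNA in its LSEC reads was not tested. Cyp2a4 is nearly identical in sequence to Cyp2a5, so reads of the pair could be assigned to either. Without NASH LSEC library 3 the limma adjusted p of Cyp2a4 was 0.0540.

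Relatives of nocturnin, 13 deadenylases and their partners, gave none higher and 4 lower in liver, where 21.0% of all genes were lower and 46.0% called, at a median of -0.15 on the log2 scale, and in LSEC the median was -0.02. The liver calls were Cnot6l, a CCR4-type deadenylase (-0.52 ± 0.10 SE, limma adjusted p = 0.00210), the scaffold gene Cnot1 (-0.49 ± 0.11, 0.00614), Cnot3 (-0.39 ± 0.09, 0.00763) and Cnot2 (-0.23 ± 0.09, 0.0492). Under scaling by total reads the list gave 7 higher and none lower, with Cnot3 at 0.03. In LSEC 0 of 13 passed the limma test, nor that of edgeR or DESeq2, while 2 had an unadjusted p under 0.05, and log2 fold changes ran from -0.41 to 0.34.

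Enzymes of NADP(H), the substrate of nocturnin, gave 3 higher and 3 lower of 9 in liver, where 46.0% of all genes were called, with a median log2 fold change of -0.01. Scaling by total reads gave 5 higher and 0 lower, at a median of 0.41. Pgd and G6pdx, of the pentose phosphate pathway, rose in liver by 1.00 ± 0.08 (SE, limma adjusted p = 2.01e-05) and by 1.17 ± 0.16 (limma adjusted p = 0.000364). Nadk2, the mitochondrial NAD kinase gene, fell by 0.62 ± 0.12 (limma adjusted p = 0.00214), and came to -0.20 without passing under scaling by total reads. In LSEC, with a median of 0.30, G6pdx rose to 1094, 1245 and 1121 normalized reads in NASH libraries, against 822, 814 and 701 in chow libraries (limma adjusted p = 0.0390), a call lost without any 1 of the 6 libraries.

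Immediate early genes, which respond to stimuli and to tissue handling and which include inducers of Per1, gave 7 higher and 1 lower of 16 in liver, with a median log2 fold change of 0.94, where 46.0% of all genes were called, 25.0% higher and 21.0% lower. Macrophage markers were also higher in NASH liver, 10 of 12 by limma, and their part in this list was not tested. The count of 8 immediate early genes was 5 without NASH library 1 or 3 or chow library 2. Egr2 rose to 224, 223 and 343 normalized reads in NASH liver, against 11.9, 7.55 and 10.3 in chow liver (limma adjusted p = 3.96e-06), Nr4a1 rose by 1.56 ± 0.23 (0.000580), and Zfp36 fell by 1.03 ± 0.10 (6.45e-05). In LSEC, with a median of 0.18, Myc rose by 2.33 ± 0.48 (limma adjusted p = 0.0343) and Klf6 by 0.81 ± 0.19 (0.0451), with Klf6 lost without any 1 library and Myc without any but chow library 2. Fos had 42053, 10991 and 18949.8 normalized reads in the NASH LSEC libraries, against 6250.2 in chow LSEC library 1 and 30984 and 36591 in the other two chow libraries. Fos was thus lowest in the chow LSEC library that was highest among chow LSEC for Arntl, Npas2, Per1 and Nr1d1. The part of handling or of time in those values was not tested.

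Glucocorticoid-induced genes, which like Per1 respond to these hormones, gave none higher and 4 lower of 8 in liver. Their median was -0.51 on the log2 scale, and the share called was near the 46.0% of all genes. Scaling by total reads gave 1 higher and 3 lower there. In LSEC, at a median of -0.08, limma called 0 of 8, edgeR 0 and DESeq2 2, and 2 had an unadjusted limma p under 0.05. Tsc22d3 fell in liver to 5683, 2374 and 3085 normalized reads in NASH libraries, against 10107, 11072 and 10028 in chow libraries (limma adjusted p = 0.000811). Errfi1 fell by 1.37 ± 0.22 (limma adjusted p = 0.000819) and Klf9 by 0.62 ± 0.10 (0.000861), the Klf9 value coming to -0.20 without passing under scaling by total reads. NASH liver library 1 was the highest NASH library for Tsc22d3 and also for Per1, at 2542 normalized reads.

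Over the 12 libraries, centred within each table, the genes most like Ccrn4l among 11274 genes averaging 50 or more normalized reads in both tables were Tfrc (Pearson's r = 0.96), Slc25a20 (0.96), D19Bwg1357e (0.96), Serpinb1a (0.95) and Top1 (0.95). Their log2 fold changes were -1.77 in liver and 1.28 in LSEC for Tfrc and -1.78 and 1.67 for Serpinb1a. They were smaller for Slc25a20 (-0.68 and 0.53), D19Bwg1357e (-0.54 and 0.38) and Top1 (-0.51 and 0.43). Most like Dbp were Calm2 (0.98), Mapre3 (0.96), Dusp3 (0.96), Strn4 (0.96) and Nsmce2 (0.96). Among the members, the correlation with Dbp was -0.84 for Arntl, 0.79 for Tef, 0.78 for Nr1d1 and Nr1d2 and 0.76 for Per2. That of Ccrn4l was 0.63 with Per1, -0.47 with Dbp and 0.07 with Arntl. These values describe 12 libraries that share their groups and tables, and no p is given.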

How the data were processed

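The sources are 2 deposited tables, 1 for whole liver and 1 for LSEC. The submitters' processing notes name mm10, STAR, HTSeq and DESeq2, without versions. For every gene a table gives a normalized signal in each library, a log2 ratio between the diets computed by the authors, and p-values of that contrast, raw and adjusted, also deposited by the authors. The signal is reads divided by 1 factor per library: dividing by that step gave whole reads, within 0.01, for 100% of values. The tables hold 16703 genes (liver) and 16273 (LSEC), with 22 names turned into dates and 2 repeated rows in each. Each tissue was fitted alone with limma 3.58.1 (R 4.3.3), with a variance trend, on log2(normalized reads + 1) and without a filter, which understates the change of low genes. Adjusted p-values are Benjamini-Hochberg values over all genes of a table, called under 0.05. The difference between tissue effects was tested over 15766 shared genes, as a two-sided t with Satterthwaite degrees of freedom, which assumes that the tissues were sampled independently. The tests were tried on simulated data. edgeR 4.0.16 and DESeq2 1.42.0 on recovered reads, other scalings, pseudocounts of 0.1 and 10, a minimum mean of 10 normalized reads, a threshold of 0.01 and leaving out each library were alternatives. The columns of the LSEC table are numbered across both diets and not by replicate within a diet, so LSEC libraries are numbered by position, as names only. Replicates of a group differed by a chi-square of 17.3 to 102 per degree of freedom, so none was a copy of another. Whether libraries are separate mice is not labelled, and p-values measure the spread between these libraries, which may be technical. Coordinates and exon lengths are from GENCODE M21 on mm10, in which 96.2% of symbols of each table were found. The members and lists were chosen with earlier results of these data known. Named were all members, every other clock gene that passed, up to 3 genes with the smallest adjusted p per other list and tissue, and the 5 genes most correlated with Ccrn4l and with Dbp. Cnot2, the listed genes outside that rule that passed for the difference between tissues, values quoted from library comparisons (Fos, Cry1), and Sphk2 and Thra were added after their values were seen. Some genes of the clock list are counted but not reported by name here.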

Additional observations from a re-analysis of the deposited data

Results flagged for a closer look

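Genes are listed here whose response to the NASH diet was unequal in the 2 tissues, given as the liver log2 fold change minus that of LSEC. For Ccrn4l it was -4.41, with every NASH library below every chow library in liver and above every chow library in LSEC. The difference was not tested, since the gene was chosen for it. Of the other clock genes it was 2.66 for Bhlhe41, 1.71 for Hlf, -0.94 for Rora, -2.82 for Nfil3 and 0.62 for Csnk1e, each with an adjusted p under 0.05 from the limma fits. The Csnk1e and Nfil3 differences were each lost without any of 8 of the 12 libraries. Of the NADP(H) enzymes 2 of 9 were higher and 3 lower in liver than in LSEC by this measure, at 0.60 for G6pdx, 0.71 for Pgd, -0.40 for Nadk, -0.96 for Nadk2 and -1.40 for Me1. Of the glucocorticoid-induced genes 0 of 8 were higher and 3 lower, at -1.58 for Tsc22d3, -1.75 for Fkbp5 and -2.73 for Errfi1. Of the clock output genes 0 of 14 were higher and 5 lower, at -0.88 for Alas1, -1.43 for Por, -1.72 for Usp2, -2.83 for Cyp2b10 and -4.16 for Cyp7a1. The median of these 14 was -1.66. Hepatocyte markers went the same way, 0 of 10 higher and 2 lower at a median of -2.66. The part of hepatocyte RNA in the LSEC values of the clock output genes was not tested. Of the deadenylases and partners Cnot8 alone passed, at 0.49. Errfi1 had 2112, 2245 and 2144 normalized reads in NASH LSEC, against 559.9, 1607 and 656 in chow LSEC. Over all genes in both tables, 19.5% passed this test.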

How the results depend on the processing

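With 3 libraries a group, genes with few reads such as Npas2 and Arntl2 rest on counts that limit precision. Across the alternatives, no member value that had been called changed sign, and 13 of the 15 that moved by more than the spread did so under scaling by total reads. That scaling gave 7878 genes higher and 904 lower in liver, against 4179 and 3512, and 1164 higher and 273 lower in LSEC, against 853 and 466. It turned the liver values of Cry2 (0.0336), Hlf (0.0091) and Cnot3 (0.0298) positive, and called 7 deadenylases in liver (against 4), 2 NADP(H) enzymes (against 1) and 1 glucocorticoid-induced gene (against 0) in LSEC, and 2 deadenylases (against 1) in the difference. A threshold of 0.01 gave 4960 genes in liver (against 7691) with 3 NADP(H) enzymes (against 6) and 5 immediate early genes (against 8), and 126 in LSEC (against 1319) with 0 clock output genes, 0 NADP(H) enzymes and 0 immediate early genes. DESeq2 called 2503 genes in LSEC, 7 other clock genes (against 3), 2 NADP(H) enzymes and 2 glucocorticoid-induced genes there; edgeR called 1 immediate early gene there (against 2) and, as an interaction, 3 clock output genes in the difference (against 5), where a pseudocount of 10 gave 8.

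Leaving out 1 library at a time gave 124 to 1171 called genes in LSEC, with 474, 241 and 124 without NASH library 1, 2 and 3 and 255 without chow library 3, and 1840 to 3171 in the difference (against 3073), lowest without chow LSEC library 3 and 1865 without NASH LSEC library 3. The list counts ran, in liver, from 5 to 12 immediate early genes; in LSEC, from 2 to 5 other clock genes, 0 to 3 clock output genes, 0 NADP(H) enzymes, 0 to 1 immediate early genes and 0 to 1 glucocorticoid-induced genes; and in the difference, from 3 to 6 other clock genes, 1 to 9 clock output genes, 0 to 2 deadenylases, 2 to 4 NADP(H) enzymes, 0 to 3 immediate early genes and 2 to 5 glucocorticoid-induced genes. The cause of these shifts was not tested. With the replicate number as a block, 7447 genes were called in liver, against 7691. Deviations of same-numbered liver libraries had correlations of -0.014, -0.016 and 0.098, where other pairs ran from -0.086 to 0.090. Such values cannot show whether the numbers pair the libraries. No paired analysis was possible in LSEC because its column names run over both diets without a link to the replicate numbers of the labels.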
